A study of Mus musculus with 2 samples.

Results

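A set of 1746 luminal cells from mammary glands of C3-TAg mice is described here, cells with few milk transcripts and few mitotic transcripts. They came from the library of Sox9-GFP;C3-TAg mice, which was compared with a library of Sox9-GFP mice (WT). Both groups were FVB/NJ mice of 3.5 months, luminal cells were isolated by FACS from the mammary gland, and transcripts were counted with a droplet-based 3′ single-cell kit. All animals carried the Sox9-GFP reporter, and the C3-TAg animals carried in addition the C3-TAg transgene, in which the promoter of a rat prostate steroid-binding protein gene drives simian virus T antigens, in mammary epithelium among other tissues. The sort gate and the number of animals pooled per library are not given in the sources used here. The labels state that 10000 cells per sample were submitted. The C3-TAg matrix held 9575 barcodes, of which 8458 had at least 500 genes, at least 1000 unique molecular identifiers (UMIs) and at most 10% of UMIs from mitochondrially encoded genes, and the WT matrix held 8993 barcodes, of which 7406 passed. There was 1 library per genotype, so no difference below has a replicate check, no p-value was computed, and every interval is a 95% interval that covers counting error only.

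The members were chosen by measured transcripts. Of the 8458 kept C3-TAg cells, 6121 had fewer than 5 UMIs per 10000 of the hormone response and receptor genes Areg, Pgr, Esr1 and Cited1, and 5289 of these had fewer than 4 of the immediate early genes Atf3, Egr1, Egr2, Nr4a1 and Arc. An Epcam UMI was found in 5281 of these cells, and 3747 of them had fewer than 10 UMIs per 10000 of 8 mitotic genes (Mki67, Top2a, Cdk1, Ccnb1, Birc5, Ube2c, Cenpf and Nusap1). In 1746 of the 3747 cells the caseins Csn1s1, Csn1s2a, Csn2 and Csn3 made up less than 0.5% of the UMIs. These members were 20.6% of the kept C3-TAg cells, and 15864 cells were kept over both libraries. They are called C3-TAg milk-low cells below, and the 2001 C3-TAg cells that met every other criterion but had at least 0.5% casein UMIs are called C3-TAg milk-expressing cells. The same rule gave 553 milk-low and 3776 milk-expressing cells in WT, and 1021 further C3-TAg milk-low cells had high mitotic transcripts (at least 10 UMIs per 10000).

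Luminal progenitors of the mammary gland turn on casein and whey protein genes as they differentiate toward alveolar cells, and the transcription factor ELF5 drives that step. T antigens bind and inactivate p53 and the Rb family, which frees E2F factors and so the transcription of DNA replication genes. The labelled markers of the milk-low cells belong to other programmes. Krt17 encodes a keratin of basal and injured epithelium, Ankrd1 and Ctgf are classic target genes of the Hippo pathway effector YAP with its DNA-binding partner TEAD, Cald1 encodes the actin-binding protein caldesmon, and Cdkn2a encodes the tumour suppressors INK4A and ARF from overlapping reading frames. INK4A and ARF share their 3′ exons, so 3′ counts do not separate them.

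On GRCm38, the build of the files (mm10), Krt17 (ENSMUSG00000035557) lies at chr11:100256217-100261029 on the minus strand, Ankrd1 (ENSMUSG00000024803) at chr19:36111961-36120099 on the minus strand and Ctgf (ENSMUSG00000019997) at chr10:24595442-24598683 on the plus strand. Cald1 (ENSMUSG00000029761) lies at chr6:34598500-34775473 on the plus strand and Cdkn2a (ENSMUSG00000044303) at chr4:89274471-89294653 on the minus strand. Promoter windows of 250 bases before a transcription start were taken from RefSeq on GRCm38.p6. RefSeq starts can differ from the gene coordinates above, and the Ankrd1 window, for example, lies within the gene span given. The windows matched 3 of the 5 labelled markers and 15 of 22 genes of a YAP target list. The windows were searched on both strands for the TEAD motif GGAATG, whose reverse complement is CATTCC, and for the AP-1 motif TGANTCA, which is its own reverse complement; the motifs share no letters in the matches shown. The windows below are shown because they hold a motif and belong to 4 genes with higher levels in milk-low than in milk-expressing cells, 2 of them labelled markers (Ankrd1 and Cald1) and 2 others of the YAP target list (Cyr61, listed by RefSeq as Ccn1, and F3). Each is written 5′ to 3′ on the gene's own strand, and capitals mark the motif.
Ankrd1, chr19:36119845-36120094, minus strand: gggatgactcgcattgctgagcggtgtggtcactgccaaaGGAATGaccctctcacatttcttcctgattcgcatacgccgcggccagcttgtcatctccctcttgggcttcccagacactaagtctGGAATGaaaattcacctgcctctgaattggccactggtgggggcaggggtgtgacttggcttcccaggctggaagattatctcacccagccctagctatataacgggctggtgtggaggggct
Cald1, chr6:34598254-34598503, plus strand: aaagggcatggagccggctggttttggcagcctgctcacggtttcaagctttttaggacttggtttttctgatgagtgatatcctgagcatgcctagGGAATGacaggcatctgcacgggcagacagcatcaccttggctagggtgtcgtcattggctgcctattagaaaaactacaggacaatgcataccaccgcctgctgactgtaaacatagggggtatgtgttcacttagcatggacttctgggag
Cyr61, chr3:145649986-145650235, minus strand: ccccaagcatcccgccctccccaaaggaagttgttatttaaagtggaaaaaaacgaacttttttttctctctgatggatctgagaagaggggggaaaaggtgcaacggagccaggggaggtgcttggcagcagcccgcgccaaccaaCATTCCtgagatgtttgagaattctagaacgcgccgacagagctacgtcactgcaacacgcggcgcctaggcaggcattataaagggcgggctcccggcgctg
F3, chr3:121723287-121723536, plus strand: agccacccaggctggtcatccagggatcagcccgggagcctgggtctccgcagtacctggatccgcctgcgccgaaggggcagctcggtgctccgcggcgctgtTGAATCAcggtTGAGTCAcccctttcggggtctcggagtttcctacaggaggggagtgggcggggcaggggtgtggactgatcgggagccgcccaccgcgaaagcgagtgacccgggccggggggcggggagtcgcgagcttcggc

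The Ankrd1 window held 2 TEAD motifs, the windows of Cald1 and Cyr61 held 1 each, and the F3 window held 2 AP-1 motifs and no TEAD motif. A second Cald1 start, with its window at chr6:34709194-34709443, held 1 AP-1 motif. The windows before the 2 Cdkn2a starts, chr4:89294620-89294869 and chr4:89282193-89282442, held neither motif. The TEAD and AP-1 motifs also occur in many other promoters. Among all 32851 RefSeq windows of this length, 12.6% held a TEAD motif and 6.75% an AP-1 motif, and of the 17 windows of the 15 YAP target genes 6 held a TEAD motif. A match describes the letters of a window and does not show that a factor binds there.

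The labelled markers were high in the members as a sum, but not in all members. At least 2 of the 5 markers were found in 52.9% of the members (50.5 to 55.2%, exact Clopper-Pearson interval) and 16.8% of the C3-TAg milk-expressing cells. The share was 10.99% in 1510 C3-TAg receptor cells, which had at least 20 UMIs per 10000 of the 4 receptor genes. They serve as a further comparison and are not free of the markers. Scrublet called 164 of them as doublets, 80 had at least 3 markers and 13 had all 5. All 5 were found in 2.46% of the members, and none in 18.04%. With each cell thinned to 2000 UMIs, which left out 16 members, at least 2 markers were found in 33.4%, 3.85% and 3.84% of these groups. Median depth was 7040 UMIs in the members, 9795 in the milk-expressing cells and 8043 in the receptor cells, so the members were the shallowest of the 3. The markers thus describe the sum over the set, while 315 of its cells showed none of them at their depth.

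Markers of other cell types were measured as lists, and their part in the results below was not tested. Their levels are in CPM, the summed UMIs of a group scaled to the same total in each group. Fibroblast markers summed to 8.38 CPM in the members, 2.38 CPM in milk-expressing cells and 67.5 CPM in WT milk-low cells. The fibroblast list reached 163 CPM in C3-TAg receptor cells and 682 CPM in WT receptor cells, where 34.8% of cells had 5 or more of its UMIs. Immune markers summed to 9.91 CPM in the members, 2.65 CPM in milk-expressing cells and 32.3 CPM in WT milk-low cells. Endothelial markers summed to 14.4 CPM in the members, 3.72 CPM in milk-expressing cells and 9.33 CPM in WT milk-low cells, and pericyte markers to 35.5 CPM in the members and 37.3 CPM in WT milk-low cells. Of the fibroblast list 2 of 9 genes had no UMI in the members, of the immune list 2 of 9, of the endothelial list 0 of 7 and of the pericyte list 1 of 6. Basal myoepithelial markers summed to 561 CPM in the members, 454 CPM in milk-expressing cells and 247 CPM in WT milk-low cells, mainly Krt14. Hormone-sensing luminal markers summed to 314 CPM in the members, 160 CPM in milk-expressing cells and 591 CPM in WT milk-low cells, against 2948 CPM in the C3-TAg receptor cells. Schwann and neural markers, mainly Mbp and Sox10, summed to 132 CPM in the members, 121 CPM in milk-expressing cells and 270.0 CPM in WT milk-low cells. The basal keratin Krt5 was at 0.728 CPM and 0.0897 CPM in the 2 C3-TAg groups, near 0. Epcam was detected by rule, with a median of 30 UMIs per member, and 5 members had exactly 1 Epcam UMI. Scrublet called 35 of the 1746 members and 74 of the 2001 milk-expressing cells as doublets, and 5 members had a barcode that also occurs in the WT library, out of 20 barcodes found in both libraries.

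Against C3-TAg milk-expressing cells, the milk-low cells had higher levels of most measured YAP target, actin-binding and squamous genes and lower levels of most measured milk and lipid genes. Krt17 was 10.7-fold higher, Ankrd1 14.8-fold, Ctgf 5.99-fold, Cald1 6.81-fold and Cdkn2a 20.5-fold. Of 7646 genes with a mean of at least 10 CPM, 1294 (16.9%) had a level at least 1.5-fold above that of milk-expressing cells and 324 (4.24%) a level at least 1.5-fold below it, and the median log2 ratio over all of them was 0.23. The rule chose these cells by casein and mitotic transcripts of the same library, so the values describe what goes with a low casein share and support nothing on their own. Trimmed-mean (TMM) scaling sets the zero of the ratios at 0.27 (log2), which gave 606 higher and 733 lower genes, 45.3% higher among those called instead of 80.0%. Ratios here are best read against that shift.

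**Figure D1:**
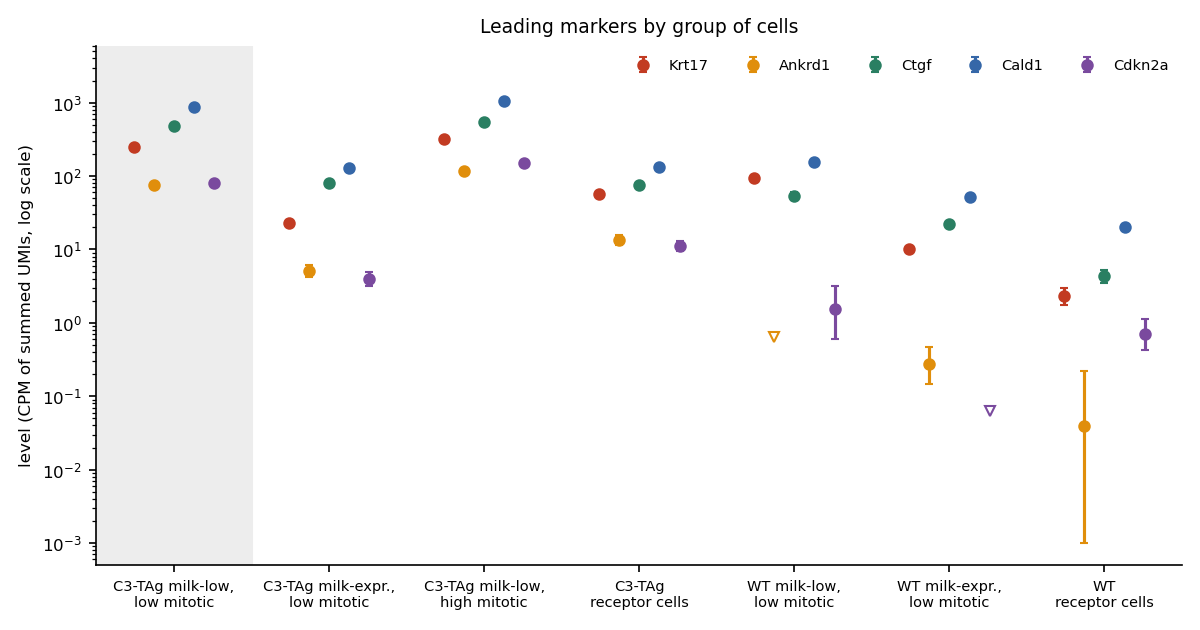
Levels of the 5 labelled markers in 7 groups of cells, in CPM of summed UMIs on a log scale; bars are exact Poisson 95% intervals and open triangles stand at the floor of 3 counts where a group had no UMI. Krt17 stands at 245 CPM in C3-TAg milk-low cells of low mitotic transcripts (shaded) and at 22.9 CPM in C3-TAg milk-expressing cells, and the cells of high mitotic transcripts lie at or above the shaded group for all 5 genes.

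Krt17 was at 245 CPM in the milk-low cells and 22.9 CPM in the milk-expressing cells (log2 ratio 3.42, 3.29 to 3.56). Ankrd1 was at 75.5 CPM in milk-low and 5.11 CPM in milk-expressing cells (3.89, 3.61 to 4.18). Ctgf was at 487 CPM in milk-low and 81.3 CPM in milk-expressing cells (2.58, 2.51 to 2.66). Cald1 was at 879 CPM in milk-low and 129 CPM in milk-expressing cells (2.77, 2.71 to 2.83). Cdkn2a was at 80.9 CPM in milk-low and 3.95 CPM in milk-expressing cells (4.36, 4.04 to 4.69). The 5 intervals, which cover counting error only, lie above the TMM shift. The share of cells with a UMI, taken from the same counts, differed too. The markers were labelled with earlier results of these data known, so neither observation is a test. A Krt17 UMI was found in 27.3% of milk-low cells, 8.496% of milk-expressing cells and 9.60% of receptor cells, and at 2000 UMIs per cell in 18.6%, 2.55% and 3.45%. Cdkn2a was found in 18.2%, 1.85% and 4.44% of them without thinning, Ankrd1 in 16.8%, 2.20% and 3.71%, Ctgf in 43.2%, 23.3% and 10.9%, and Cald1 in 73.02%, 42.2% and 26.95%. For Krt17, Ankrd1 and Cdkn2a the milk-expressing share was below that of the receptor cells. Krt17 was at 56.8 CPM in the receptor cells. Whether the milk-expressing UMIs of these 3 genes are background was not tested.

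Members with a UMI of one marker more often had a UMI of another, given as a description since the cells share a library and differ in depth. Of the 476 members with a Krt17 UMI, 32.8% also had an Ankrd1 UMI, against 10.8% of the 1270 without Krt17. Cdkn2a was found in 35.9% of the members with Krt17 and 11.6% of those without, and Cald1 in 91.6% and 66.1%. At 2000 UMIs per cell the Ankrd1 shares were 21.5% and 4.76%. Krt14 did not follow Ankrd1, with 52.9% of the members with an Ankrd1 UMI and 54.6% of those without.

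Of the YAP target list, 16 of 22 genes were measured, and 11 were higher and 1 lower in milk-low cells, with a median log2 ratio of 1.30 beside 0.23 over all genes. Nt5e, the surface enzyme CD73 that makes adenosine, was at 23.5 CPM in milk-low and 2.20 CPM in milk-expressing cells. Crim1, a transmembrane BMP-binding protein, was at 46.6 CPM in milk-low and 8.43 CPM in milk-expressing cells. The matricellular protein gene Cyr61 was at 1977 CPM in milk-low and 629.7 CPM in milk-expressing cells. F3, which encodes tissue factor, was at 599 CPM in milk-low and 153 CPM in milk-expressing cells. Asap1 was the lower member, at 15.95 CPM in milk-low and 26.5 CPM in milk-expressing cells. Ankrd1 and Cyr61, whose windows with a TEAD motif are printed above, differed in abundance. Those windows were picked for their motif, and a link between motif and level was not tested.

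All 14 measured genes of the 21 contractile and actin-binding genes were at least 1.5-fold higher, with a median of 1.53. Tpm2, a tropomyosin, was at 59.4 CPM in milk-low cells and 4.44 CPM in milk-expressing cells. Tagln2, a transgelin of non-muscle cells, was at 1066 CPM in milk-low and 219.8 CPM in milk-expressing cells. Tpm1, another tropomyosin, was at 594 CPM in milk-low and 175 CPM in milk-expressing cells. Vinculin (Vcl), the smallest difference, was at 141 CPM in milk-low and 90.04 CPM in milk-expressing cells. Acta2, the smooth muscle actin of myoepithelium, was at 8.45 CPM in milk-low and 1.48 CPM in milk-expressing cells and was under the level filter, as were Myh11 and Cnn1. The measured genes of this list are used by the cytoskeleton of many adherent cells, and these 3 genes of smooth muscle were not among them.

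Among keratins, Krt23 was at 54.9 CPM in milk-low and 3.72 CPM in milk-expressing cells. Krt7, a simple epithelial keratin, was at 743 CPM in milk-low and 122 CPM in milk-expressing cells. The stress keratin Krt16 was at 32.3 CPM in milk-low and 6.68 CPM in milk-expressing cells. Krt14, the basal keratin, was at 458 CPM in milk-low and 431 CPM in milk-expressing cells, a log2 ratio of 0.09 that lay below the TMM shift, and Krt19, a luminal keratin, was at 1040.3 CPM in milk-low and 1281 CPM in milk-expressing cells. Krt17, Krt23, Krt16 and Krt7 were thus higher in milk-low cells, and the summed level of Krt14 was close in both groups. A Krt14 UMI was found in 54.4% of milk-low and 76.7% of milk-expressing cells, and at 2000 UMIs per cell in 36.8% and 43.5%.

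Of 15 squamous and barrier genes, 8 were measured and 6 were higher, with a median of 2.64. Anxa3, an annexin, was at 371 CPM in milk-low and 26.9 CPM in milk-expressing cells. Ly6d, a surface protein of stratified epithelium, was at 775 CPM in milk-low and 77.8 CPM in milk-expressing cells. Lgals3, galectin-3, was at 876 CPM in milk-low and 139 CPM in milk-expressing cells. Of 9 measured S100 genes 6 were higher and 1 lower, with S100a6 at 2599 CPM in milk-low and 343 CPM in milk-expressing cells. S100a8, a calprotectin subunit, was at 28.8 CPM in milk-low and 155 CPM in milk-expressing cells. Of 14 junction genes 9 were higher, with a median of 0.63. The desmosome gene Dsp was at 76.7 CPM in milk-low and 9.91 CPM in milk-expressing cells. E-cadherin (Cdh1) was at 391 CPM in milk-low and 245 CPM in milk-expressing cells. With TMM scaling the junction median was 0.37.

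Matrix and mesenchymal genes were near 0 in most cases. Only 4 of 23 passed the level filter, and the other 19 had a mean under 10 CPM. All 4 were higher, with fibronectin (Fn1) at 66.00 CPM in milk-low and 6.23 CPM in milk-expressing cells. Osteonectin (Sparc) was at 22.7 CPM in milk-low and 1.79 CPM in milk-expressing cells. Fn1 was found in 14.03% of milk-low and 1.40% of milk-expressing cells, and 10 cells held 21.9% and 85.6% of its UMIs in these groups. Vim, the mesenchymal filament vimentin, was below the filter at 15.1 CPM in milk-low and 2.96 CPM in milk-expressing cells. Of the TGF-beta and activin list, 7 of 15 measured genes were higher, with Inhba, the activin A subunit, at 43.7 CPM in milk-low and 3.72 CPM in milk-expressing cells. Id3, a target of BMP signalling, was at 32.2 CPM in milk-low and 4.04 CPM in milk-expressing cells. Of 13 measured integrin and laminin genes 7 were higher, with the hyaluronan receptor Cd44 at 96.2 CPM in milk-low and 30.4 CPM in milk-expressing cells. The laminin receptor subunit Itga6 was at 193 CPM in milk-low and 281 CPM in milk-expressing cells.

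Most measured genes of secreted ligands were higher. Of 10 measured chemokine and cytokine genes 9 were higher, with a median of 2.33. Cxcl1, a neutrophil chemokine, was at 489 CPM in milk-low and 87.4 CPM in milk-expressing cells. Cxcl2 was at 196 CPM in milk-low and 30.5 CPM in milk-expressing cells. The inflammatory cytokine gene Tnf was at 31.3 CPM in milk-low and 5.65 CPM in milk-expressing cells. Cxcl10, an interferon-induced chemokine, had the highest ratio of all named genes, at 50.1 CPM in milk-low and 1.88 CPM in milk-expressing cells, but 10 cells held 77.5% of its UMIs in the milk-low cells. Of 10 measured genes of the EGF family and its feedback genes 8 were higher. Hbegf, a ligand of the EGF receptor, was at 695 CPM in milk-low and 143 CPM in milk-expressing cells. Epgn, epigen, was at 17.6 CPM in milk-low and 3.86 CPM in milk-expressing cells. Spry1, a feedback inhibitor, was at 36.1 CPM in milk-low and 4.57 CPM in milk-expressing cells. Erbb3, an EGF family receptor, was within 1.5-fold and was at 84.6 CPM in milk-low and 97.04 CPM in milk-expressing cells.

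Of 17 measured milk and lipid genes outside the rule 14 were lower, with a median of -1.81. Lalba, the whey protein alpha-lactalbumin, was at 33.5 CPM in milk-low and 965 CPM in milk-expressing cells. Wap, whey acidic protein, was at 3.64 CPM in milk-low and 128 CPM in milk-expressing cells. Spp1, osteopontin, was at 131 CPM in milk-low and 3458 CPM in milk-expressing cells. Plin2, a lipid droplet protein, was at 713 CPM in milk-low and 2507 CPM in milk-expressing cells. Glycam1, at 409.8 CPM in milk-low and 574 CPM in milk-expressing cells, rested on few cells, since 10 milk-low cells held 99.3% of its UMIs. The acute phase gene Saa1 was at 3.86 CPM in milk-low and 370.0 CPM in milk-expressing cells. Its neighbour in the family, Saa2, was at 2.62 CPM in milk-low and 288 CPM in milk-expressing cells. Of 12 measured antimicrobial and secretory genes 6 were lower and 2 higher. Of the higher ones, Wfdc2 was at 285 CPM in milk-low and 39.5 CPM in milk-expressing cells. Slpi, an antiprotease, was at 164 CPM in milk-low and 53.7 CPM in milk-expressing cells. Lao1, an L-amino acid oxidase of milk, had 1 UMI in the milk-low cells, 0.0728 CPM, and 47.04 CPM in milk-expressing cells (log2 ratio -9.33, -14.64 to -6.85).

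Of 19 measured alveolar and progenitor regulators 6 were higher and 5 lower, with a median of 0.01. Elf5, the alveolar factor, was at 95.6 CPM in milk-low and 256 CPM in milk-expressing cells. Cd14, an endotoxin co-receptor of luminal progenitors, was at 876 CPM in milk-low and 2174 CPM in milk-expressing cells. Aldh1a3, the retinaldehyde dehydrogenase of luminal progenitors, was at 263 CPM in milk-low and 49.9 CPM in milk-expressing cells. Kit, the progenitor receptor, was at 83.8 CPM in milk-low and 36.6 CPM in milk-expressing cells. Klf4, a transcription factor of epithelial differentiation, was at 272 CPM in milk-low and 67.9 CPM in milk-expressing cells. Of 6 measured fetal-state factors 4 were higher. Sox11, a SOXC factor of the fetal gland, was at 41.1 CPM in milk-low and 2.02 CPM in milk-expressing cells, and 14.1% of milk-low and 1.499% of milk-expressing cells had a UMI. Sox9, the factor the study's reporter reads, was at 499 CPM in milk-low and 288 CPM in milk-expressing cells (log2 ratio 0.80, or 0.53 with TMM scaling, which is under 1.5-fold). Vtcn1, the immune ligand B7x, was at 18.6 CPM in milk-low and 9.78 CPM in milk-expressing cells (0.93, 0.66 to 1.19). At 2000 UMIs per cell a Vtcn1 UMI was found in 3.12% of milk-low, 1.45% of milk-expressing and 1.66% of receptor cells. These thinned shares rest on 54, 29 and 25 cells. Their intervals, for counting error only, were 2.35 to 4.05%, 0.973 to 2.07% and 1.07 to 2.44%. The differences between them were not tested. Among 14 measured immune ligand and MHC class I genes 5 were higher, with B2m, the class I light chain, at 1199 CPM in milk-low and 1266 CPM in milk-expressing cells. H2-Q7 was at 149 CPM in milk-low and 83.4 CPM in milk-expressing cells.

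Of 23 S phase and E2F target genes 16 were at least 1.5-fold higher than in milk-expressing cells and none lower, with a median of 0.71 (0.45 with TMM scaling). Mcm3, a helicase subunit, was at 228 CPM in milk-low and 108 CPM in milk-expressing cells. Hells, a chromatin remodeller, was at 179.8 CPM in milk-low and 92.6 CPM in milk-expressing cells. Rrm2, a ribonucleotide reductase subunit, was at 72.9 CPM in milk-low and 57.9 CPM in milk-expressing cells. At 2000 UMIs per cell, 2 or more S phase UMIs were found in 83.4% of milk-low cells, 65.4% of milk-expressing cells and 18.2% of receptor cells. Without thinning the shares were 95.9%, 94.00% and 61.5%. Of 12 measured G2M genes outside the rule 3 were higher, beside 16.9% of all measured genes. The median of this list was 0.27, at the TMM shift, so the list as a whole did not stand out. Anln was at 97.03 CPM in milk-low and 32.4 CPM in milk-expressing cells. Kif23 was at 19.9 CPM in milk-low and 8.30 CPM in milk-expressing cells. Prc1 was at 132 CPM in milk-low and 79.8 CPM in milk-expressing cells. The Rb family and D cyclin list had 8 measured genes, 3 of them higher, with Rb1 at 34.2 CPM in milk-low and 45.1 CPM in milk-expressing cells. Ccnd1 was at 46.04 CPM in milk-low and 33.2 CPM in milk-expressing cells. Of the 5 measured CDK inhibitors, Cdkn1a (p21) was at 223 CPM in milk-low and 64.2 CPM in milk-expressing cells. Cdkn1b (p27) was at 78.6 CPM in milk-low and 52.3 CPM in milk-expressing cells. Of 16 measured p53 target genes 10 were higher and 1 lower, with the cell death gene Pmaip1 at 31.2 CPM in milk-low and 3.004 CPM in milk-expressing cells. The lower one, Trp53inp1, was at 28.4 CPM in milk-low and 60.7 CPM in milk-expressing cells.

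Of 12 measured hypoxia and glycolysis genes 5 were lower and 1 higher, with lactate dehydrogenase A (Ldha) at 404 CPM in milk-low and 836 CPM in milk-expressing cells. The oxygen sensor Egln3 was at 16.3 CPM in milk-low and 5.96 CPM in milk-expressing cells. Of 18 immediate early and heat shock genes 3 were higher, near the 16.9% over all measured genes. The immediate early gene Fos was at 272 CPM in milk-low and 309 CPM in milk-expressing cells. The rule had limited both groups to cells with fewer than 4 of 5 other immediate early genes, so this closeness is not independent of the rule. The small heat shock protein gene Hspb1 was at 1176 CPM in milk-low and 320.0 CPM in milk-expressing cells. Outside the lists, Fam167a (53.9 CPM in milk-low and 4.93 CPM in milk-expressing cells) and Hopx (46.9 CPM in milk-low and 4.53 CPM in milk-expressing cells) were among the 12 genes with the highest ratio. Among the 12 with the lowest were Chil1 (47.9 CPM in milk-low and 352 CPM in milk-expressing cells), Lrg1 (49.5 CPM in milk-low and 398 CPM in milk-expressing cells), Folr1, a folate receptor (32.7 CPM in milk-low and 237 CPM in milk-expressing cells), Btn1a1, a milk fat globule protein (8.09 CPM in milk-low and 80.00 CPM in milk-expressing cells), Fabp3, a fatty acid carrier (8.96 CPM in milk-low and 68.6 CPM in milk-expressing cells), and Cel, a lipase (2.99 CPM in milk-low and 41.3 CPM in milk-expressing cells).

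**Figure D2:**
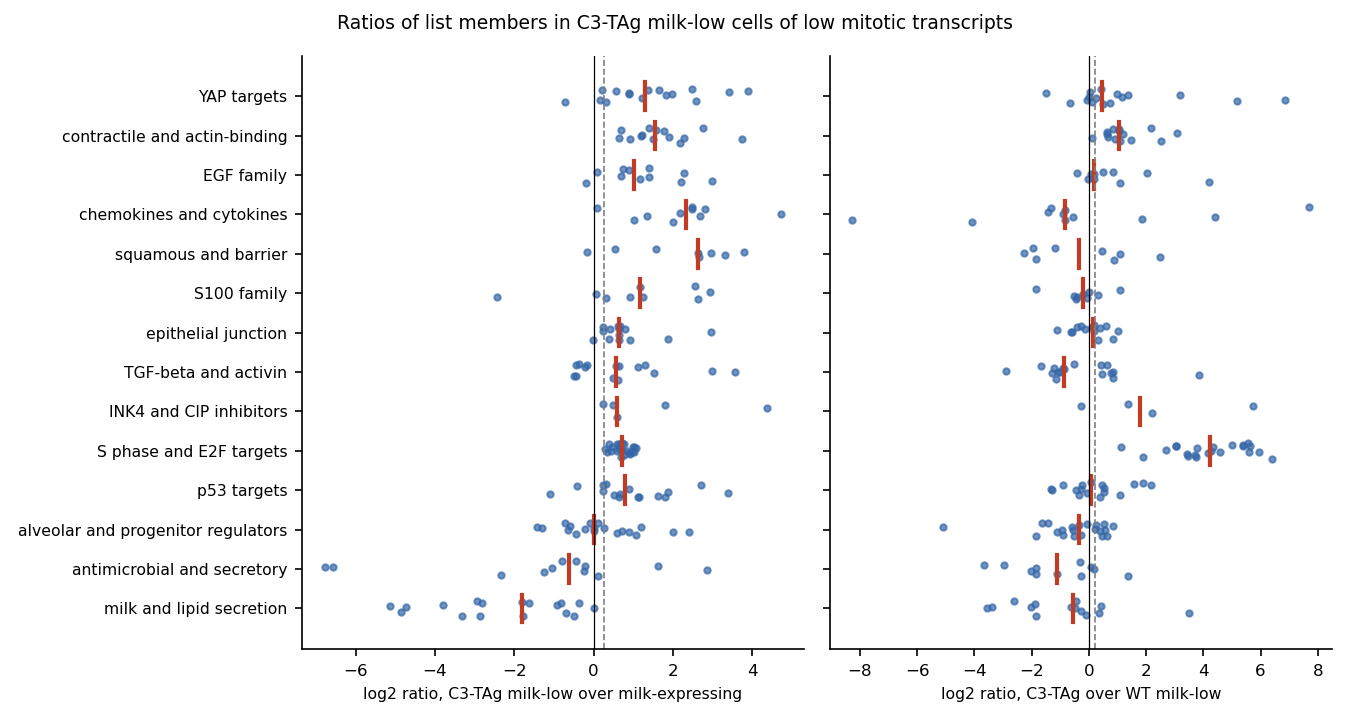
Log2 ratios of the measured members of 14 gene lists, C3-TAg milk-low over C3-TAg milk-expressing cells (left) and over WT milk-low cells (right); each blue point is a gene, the red bar the list's median, the solid line 0 and the dashed line the TMM shift (0.27 left, 0.23 right). The contractile, chemokine and squamous lists lie mostly above the dashed line on the left, and the S phase list stands apart on the right with a median of 4.22.

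Within the members the labelled markers were high in cells with up to 0.1% casein and lower nearer the threshold. In C3-TAg cells with no casein UMI (369 cells) Krt17 was at 308 CPM, and in the 952 cells with up to 0.1% it was at 311 CPM. It was at 114 CPM in 194 cells with 0.1 to 0.25%, and at 45.8 CPM in 231 cells with 0.25 to 0.5%, just inside the threshold. Just outside it, in 364 cells with 0.5 to 1%, Krt17 was at 35.96 CPM. Farther out it was at 38.9 CPM at 1 to 2% and 11.9 CPM at 2% or more. The Krt17 levels on both sides of the threshold were within 1.5-fold.

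Cdkn2a was at 113, 104, 21.8 and 7.48 CPM in the 4 bins of milk-low cells, from the lowest casein share up, and 3.02 CPM just outside. The Cdkn2a intervals of the bins next to the threshold overlapped. Ankrd1 was at 103, 97.6, 18.1 and 11.7 CPM, and 12.4 CPM just outside. Sox9 differed less between the ends, at 559 CPM with no casein UMI and 263 CPM at 2% or more. Elf5 ran the opposite way, at 60.7 and 287 CPM at those ends. Krt14 was highest in between, at 591 CPM just inside and 585 CPM just outside, against 307 CPM with no casein UMI.

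**Figure D3:**
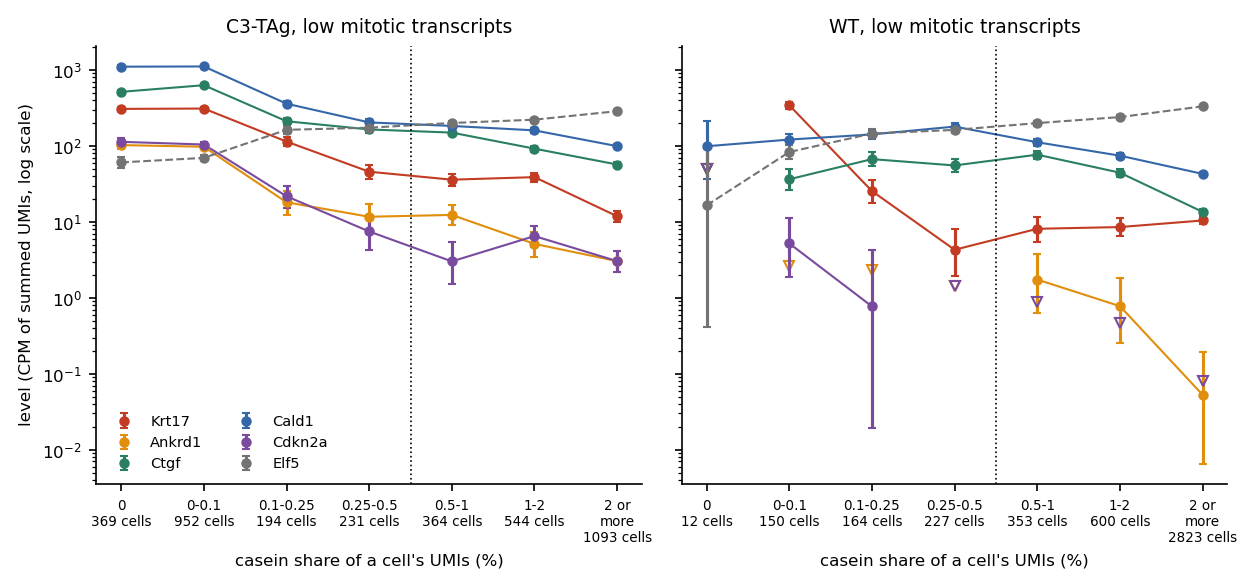
Levels of the 5 labelled markers and of Elf5 (CPM of summed UMIs, log scale) by the casein share of a cell's UMIs, in C3-TAg (left) and WT (right) cells of low mitotic transcripts; bars are exact Poisson 95% intervals, open triangles the floor of 3 counts for bins with no UMI, and the dotted line the 0.5% threshold. The C3-TAg markers step down between the bins of up to 0.1% and 0.1 to 0.25%, while Elf5 is higher in the bins to the right.

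Clustered on their own, they formed 7 clusters of 509, 383, 368, 356, 64, 50 and 16 cells, kept by number. At lower and higher resolution there were 4 and 9 clusters, and 506 and 329 of the 509 cells of cluster 1 stayed in a single cluster. The 2000 most variable genes of these cells entered the clustering, so the levels below describe the clusters and test nothing.

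Cluster 1, 29.2% of the members, carried most of the labelled markers. It held 83.7% of the Ankrd1 UMIs, 67.2% of the Ctgf, 66.8% of the Krt17 and 62.1% of the Cald1 UMIs of the members. At least 2 of the 5 markers were found in 87.0% of its cells and none in 1.57%. Its leading genes were Ankrd1 (215 CPM in the cluster, 17.4 CPM in the other members), Edn1, the peptide endothelin-1 (396 and 68.02 CPM), F3 (1371 and 277 CPM), Ctgf, Krt17 and Iffo2. Elf5 was at 40.1 CPM there. Without cluster 1, 211 genes instead of 324 were lower in the members than in milk-expressing cells.

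In cluster 2 (21.9%) the labelled markers were low. Krt17 was at 22.8 CPM and Cdkn2a at 1.85 CPM, Elf5 at 192 CPM, and 40.5% of its cells had none of the 5 markers. Its leading genes included Lalba (107 CPM in the cluster, 10.9 CPM in the other members, both below the 965 CPM of milk-expressing cells), Xbp1, a secretory pathway factor (627 and 115 CPM), G0s2, S100a8 and Lrg1. Its median casein share was 0.15% of UMIs, the highest of the 7 clusters.

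Cluster 3 (21.1%) had Cald1 at 869 CPM, Cdkn2a at 116 CPM and Krt17 at 89.7 CPM. By ratio it was led by Glycam1, Ctla2a and Wfdc17, which rested on few cells, with 2 cells holding 99.8% of the cluster's Glycam1 UMIs. Among genes found in at least 25% of its cells it was led by Ly6d (1707 CPM in the cluster, 548 CPM in the other members), Cxcl1 and Asprv1, a skin protease. Endothelial markers summed to 55.5 CPM and immune markers to 29.4 CPM in cluster 3, the highest sums of the 7 clusters. Their part in the genes that rested on few cells was not tested. Cluster 4 (20.4%) had Ankrd1 at 24.9 CPM, Cdkn2a at 3.91 CPM and Krt8 at 5523 CPM. Rsad2, Ifit1 and Ccl5 led it by ratio on few cells, and among genes of at least 25% of its cells Ltf, lactoferrin, led with 2471 CPM in the cluster and 441 CPM in the other members, followed by Cbr2 and Csf3, the granulocyte colony-stimulating factor.

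Cluster 5 (3.67%) had hormone-sensing luminal markers at a sum of 4100.2 CPM, with Prlr, the prolactin receptor, at 2251 CPM and Foxa1 at 107 CPM, although the rule had set a ceiling on Areg, Pgr, Esr1 and Cited1. At least 2 of the labelled markers were found in 15.6% of its 64 cells, and its S phase genes summed to 347 CPM, against 3055 CPM in cluster 1. Bmp3, Ang5, Ang4, Ctse, Fxyd2 and Slc35f3 led it, with Fxyd2 at 1101 CPM in the cluster and 2.56 CPM in the other members. Cluster 6 (2.86%) had the highest Krt17, 1149 CPM, with Fn1 at 1003 CPM and Cdkn2a at 636 CPM, and was led by Slurp1, Pamr1, Has1, Pappa, Klk5 and Ptgs2. Cluster 7, of 16 cells, had Cdkn2a at 1562 CPM and no Ankrd1 UMI, with an Ankrd1 interval up to 28.8 CPM, above the levels of clusters 2 to 5. It was led by Col1a2, Cytl1, Vcan, Fam181b, Snhg18 and Osr1, with the fibroblast collagen gene Col1a2 at 102 CPM. Of the Cdkn2a UMIs of all members, 30.96% lay in cluster 1, 28.1% in cluster 3, 21.2% in cluster 6 and 18.00% in cluster 7, so Cdkn2a was spread differently from Ankrd1. Of the Fn1 UMIs of all members, 40.7% lay in cluster 1, 40.9% in cluster 6 and 9.27% in cluster 7.

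**Figure D4:**
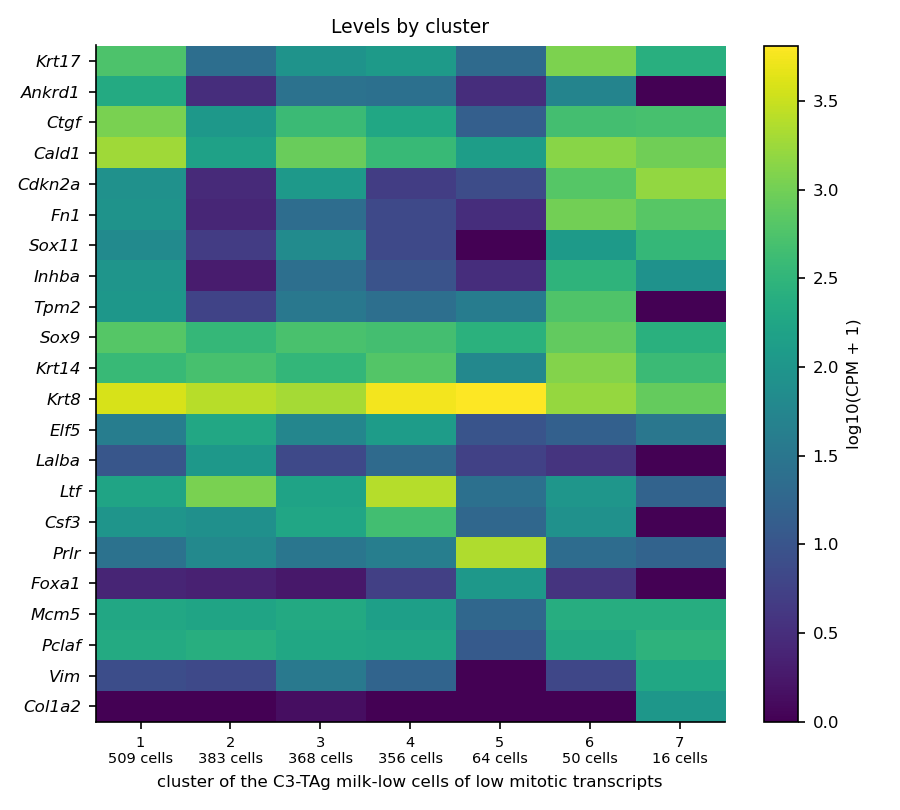
Levels of 22 genes in the 7 clusters of the C3-TAg milk-low cells of low mitotic transcripts, as log10(CPM + 1); columns give the cluster number and its cells. Cluster 1 is high for Krt17, Ankrd1, Ctgf and Cald1, cluster 2 is low for all 5 labelled markers and high for Elf5 and Lalba, cluster 5 is high for Prlr, and clusters 6 and 7 have the highest Fn1 and Cdkn2a.

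High mitotic transcripts were found in 36.9% of C3-TAg milk-low cells and 20.4% of C3-TAg milk-expressing cells that met the other criteria, and in 2 cells of each kind in WT. Members of low mitotic transcripts differed from the 1021 cells of high mitotic transcripts by lower levels of histone and spindle genes. Of 7989 genes measured, 115 (1.44%) were higher in the low mitotic cells by 1.5-fold or more and 521 (6.52%) were lower, and the median over all genes was -0.10. With TMM scaling, zero lay at -0.11 and there were 188 higher and 373 lower genes, 33.5% higher among those called instead of 18.1%. The rule used mitotic transcripts of these cells, so the differences are a description.

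Hist1h2ap, a replication-dependent histone, was at 12.8 CPM in low and 205 CPM in high mitotic cells (log2 ratio -4.00, -4.23 to -3.78), and the histone genes Hist1h3c, Hist1h1a, Hist1h1b and Hist1h2ae were also among the 8 lowest. Hmmr, Kif11 and Aurkb, genes of the mitotic spindle, completed these 8, with Kif11 at 13.9 CPM in low and 116 CPM in high mitotic cells. All 18 G2M genes outside the rule were lower, with a median of -2.21. S phase genes split. Of 23, 2 were higher and 7 lower. Gins2, a replication fork protein, was at 90.3 CPM in low and 43.97 CPM in high mitotic cells. Ung, a DNA glycosylase, was at 65.3 CPM in low and 36.2 CPM in high mitotic cells. Pclaf, a factor bound to the replication clamp, was at 202 CPM in low and 560.1 CPM in high mitotic cells and so differed the other way.

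Of the labelled markers, Cdkn2a and Ankrd1 were lower in the low mitotic cells and the other 3 were within 1.5-fold. Cdkn2a was at 80.9 CPM in low and 149 CPM in high mitotic cells (log2 ratio -0.88, -0.99 to -0.77) and Ankrd1 at 75.5 CPM in low and 118 CPM in high mitotic cells (-0.65, or -0.54 with TMM scaling). Krt17 (-0.39), Cald1 (-0.25) and Ctgf (-0.14) were within 1.5-fold. Of the 6 measured CDK inhibitors 4 were lower in the low mitotic cells, with Cdkn2d (INK4D) at 12.2 CPM in low and 41.3 CPM in high mitotic cells. Cdkn1a was at 223 CPM in low and 380.1 CPM in high mitotic cells. None of 15 contractile genes and 1 of 16 YAP targets, Ankrd1, passed 1.5-fold. Of the genes that were higher, Glycam1 (409.8 CPM in low and 3.51 CPM in high mitotic cells) and Ccl2 (45.1 CPM in low and 18.4 CPM in high mitotic cells) rested on few cells, with 10 low mitotic cells holding 99.3% and 74.96% of their UMIs. Fxyd2 was at 39.05 CPM in low and 5.85 CPM in high mitotic cells and is a leading gene of cluster 5. Slpi was at 164 CPM in low and 63.4 CPM in high mitotic cells, 10 low mitotic cells held 42.9% of its UMIs there, and a UMI was found in 19.5% of low and 20.96% of high mitotic cells. Gpx3, a secreted glutathione peroxidase, was at 42.3 CPM in low and 14.5 CPM in high mitotic cells, with 43.4% of its low mitotic UMIs in 10 cells. C3-TAg receptor cells had 3503 CPM of Slpi and 1119 CPM of Gpx3. Hormone-sensing luminal markers summed to 314 CPM in low and 192 CPM in high mitotic cells, 3 of 5 measured ones were higher and none lower, and their part in these differences was not tested. Tcp11l2 was at 32.6 CPM in low and 12.6 CPM in high mitotic cells. Lrg1 was at 49.5 CPM in low and 20.7 CPM in high mitotic cells. Aldoc, a glycolytic aldolase, was more widely spread, with 63.1 CPM in low and 26.1 CPM in high mitotic cells and a UMI in 30.2% and 20.8% of cells. Median depth was 7040 UMIs in the low and 10130 in the high mitotic cells.

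Within the members the mitotic share itself varied, and 31.2% had no UMI of the 8 mitotic genes. Pclaf was at 24.9 CPM in those 545 cells and at 53.8, 194 and 455 CPM in the bins of up to 2, 2 to 5 and 5 to 10 UMIs per 10000, and just outside the rule, at 10 to 20, it was at 619.7 CPM. The summed level of the S phase list was 1669.8 CPM with no mitotic UMI and 3856 CPM just inside the threshold. Krt17 lay between 213 and 285 CPM over the 4 bins of the members and Cdkn2a between 68.3 and 93.05 CPM. In cells with no mitotic UMI both were still present, at 228 and 78.8 CPM. No cell cycle phase was called.

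**Figure D5:**
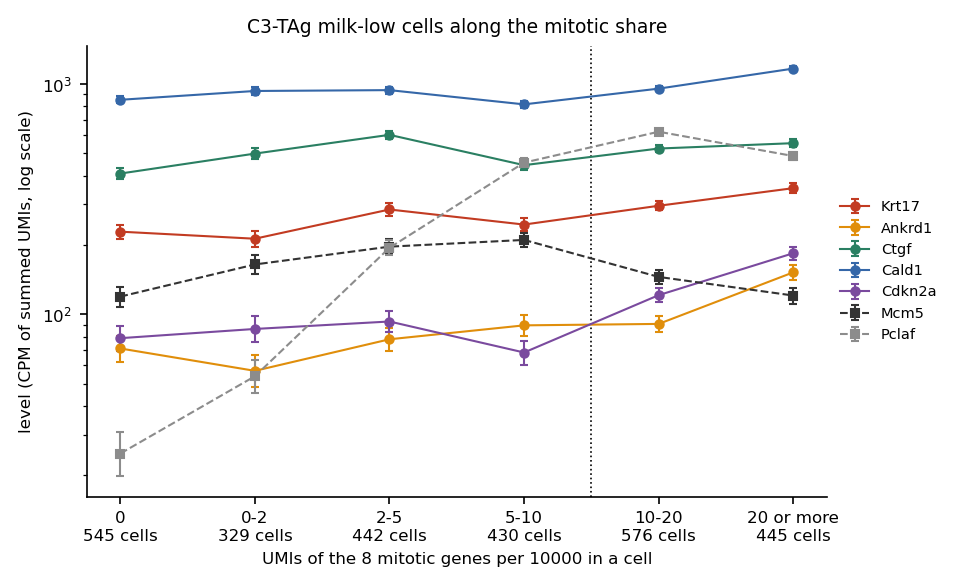
Levels of the 5 labelled markers, Mcm5 and Pclaf (CPM of summed UMIs, log scale) by the mitotic share in all C3-TAg milk-low cells; bars are exact Poisson 95% intervals and the dotted line is the threshold of 10 per 10000, with the members to its left. Pclaf runs from 24.9 CPM in the lowest bin to 620 CPM just outside the threshold, while Krt17 stays between 213 and 353 CPM.

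Set against WT milk-low cells chosen by the same rule, C3-TAg milk-low cells had higher levels of DNA replication genes and of the labelled markers, and lower levels of most chemokine and TGF-beta genes measured. The sets differ in size and in their place on the casein axis. Milk-low cells were 46.6% of the low mitotic C3-TAg cells and 12.8% of the low mitotic WT cells, with median casein shares of 0.0269% and 0.195% of UMIs and median depths of 7040 and 7683 UMIs. Genotype, library and the animals pooled cannot be told apart here. Of 7687 genes measured, 2088 (27.2%) were higher in C3-TAg by 1.5-fold or more and 784 (10.2%) were lower, and the median over all genes was 0.28 (log2). With TMM scaling, zero lay at 0.23 and there were 1201 higher and 1194 lower genes, 50.1% higher among those called instead of 72.7%.

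Ankrd1 was at 75.5 CPM in C3-TAg and had no UMI in WT milk-low cells. The ratio was 116-fold with the floor of 3 counts put in for the WT group, and the lower end of its interval was 94.2-fold. Cdkn2a was at 80.9 CPM in C3-TAg and 1.52 CPM in WT (log2 ratio 5.74, 4.69 to 7.05). Ctgf was at 487 CPM in C3-TAg and 53.2 CPM in WT (3.20, 3.01 to 3.38). Cald1 was at 879 CPM in C3-TAg and 153 CPM in WT (2.52, 2.41 to 2.63). Krt17 was at 245 CPM in C3-TAg and 95.1 CPM in WT, but 2 WT cells held 88.1% of its WT UMIs, and a Krt17 UMI was found in 27.3% of C3-TAg and 2.89% of WT milk-low cells. In the bin of up to 0.1% casein, Krt17 was at 311 CPM in C3-TAg and 343 CPM in WT, where the WT value rested on few of 150 cells. Cald1 in that bin was at 1113 CPM in C3-TAg and 121 CPM in WT, and Cdkn2a at 104 and 5.20 CPM, so these differences were also present in that bin.

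Milk-low cells were also set beside the milk-expressing cells of each library. In WT, Cald1 was at 153 CPM in milk-low and 52.1 CPM in milk-expressing cells (log2 ratio 1.56), where C3-TAg had 2.77. Ctgf was at 53.2 and 22.3 CPM in WT (1.25), where C3-TAg had 2.58. Ankrd1 was at 0 and 0.272 CPM in WT, and Cdkn2a at 1.52 and 0 CPM. Krt17 was at 95.1 and 10.0 CPM in WT (3.25), where C3-TAg had 3.42, but 2 WT cells held 88.1% of its milk-low UMIs. Of 7015 genes, 1105 were higher and 347 lower in WT milk-low cells (median 0.20). All 8 measured squamous genes (median 2.82, C3-TAg 2.64) and all 8 chemokine genes (2.05, C3-TAg 2.33) were higher. So were 10 of 13 contractile genes (0.81, C3-TAg 1.53) and 8 of 12 YAP targets (0.73, C3-TAg 1.30), and none was lower. The difference between the libraries in these ratios was not tested.

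All 22 measured S phase genes and all 10 measured G2M genes were higher in C3-TAg, with medians of 4.22 and 5.17 beside 0.28 over all genes, although both sets were cut to low mitotic transcripts. Of the WT milk-low cells, 93.7% had no UMI of the 8 mitotic genes, against 31.2% of the members. Mcm5 was at 175 CPM in C3-TAg and 2.82 CPM in WT, with a UMI in 63.3% and 1.99% of cells. Pclaf was at 202 CPM in C3-TAg and 2.39 CPM in WT. Clspn, a checkpoint mediator at replication forks, was at 75.6 CPM in C3-TAg and 0.651 CPM in WT. Cdc45, a helicase cofactor, was at 40.3 CPM in C3-TAg and 0.434 CPM in WT. Of 4 measured CDK inhibitors 3 were higher, and Cdkn1a was at 223 CPM in C3-TAg and 271 CPM in WT. Of 17 measured p53 targets 4 were higher and 3 lower, with Plk2 at 362 CPM in C3-TAg and 80.3 CPM in WT. Trp53inp1 was at 28.4 CPM in C3-TAg and 68.6 CPM in WT.

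Of 14 measured contractile genes 13 were higher in C3-TAg, with a median of 1.05, and of 16 YAP targets 7 were higher and 2 lower, with a median of 0.46. The examples differed in size. Tpm2 was at 59.4 CPM in C3-TAg and 6.95 CPM in WT. Nt5e was at 23.5 CPM in C3-TAg and 0.651 CPM in WT. Cyr61 was at 1977 CPM in C3-TAg and 877 CPM in WT. F3 differed less and was at 599 CPM in C3-TAg and 504 CPM in WT, within 1.5-fold. Fn1 was at 66.00 CPM in C3-TAg and had 1 UMI in WT (0.217 CPM), a log2 ratio of 8.25 (5.77 to 13.55). Cluster 6, of 50 cells, held 40.9% of its C3-TAg UMIs. Keratins differed in both directions. Krt14 was at 458 CPM in C3-TAg and 127 CPM in WT. In the bin of up to 0.1% casein the Krt14 levels were closer, at 464 CPM in C3-TAg and 400 CPM in WT. Krt23 was at 54.9 CPM in C3-TAg and 2.39 CPM in WT. The luminal keratins Krt8 and Krt19 were lower in C3-TAg. Krt8 was at 3496 CPM in C3-TAg and 7361 CPM in WT. Krt19 was at 1040.3 CPM in C3-TAg and 3903 CPM in WT. Krt5, at 0.728 CPM in C3-TAg and 43.4 CPM in WT, was found in 0.723% of WT cells. Fibroblast markers summed to 8.38 CPM in C3-TAg and 67.5 CPM in WT, of which Dcn made up 66.4 CPM, and their part in the lower matrix genes of C3-TAg was not tested.

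Csf3, the granulocyte factor, was at 178 CPM in C3-TAg and 3003 CPM in WT milk-low cells, with a UMI in 19.1% and 67.1% of cells, and 7 of 11 measured chemokine and cytokine genes were lower and 3 higher. The higher ones were Ccl2, Cxcl10 and Ccl20. Ccl2, a monocyte chemokine, was at 45.1 CPM in C3-TAg and 0.217 CPM in WT on 1 WT UMI (a ratio of 208-fold, with an exact interval of 37.1 to 8218), and 10 C3-TAg cells held 74.96% of its C3-TAg UMIs. Cxcl10 was at 50.1 CPM in C3-TAg and 2.39 CPM in WT, and 10 C3-TAg cells held 77.5% of its C3-TAg UMIs. Ccl20 was at 30.2 CPM in C3-TAg and 8.25 CPM in WT. Of the lower ones, Cxcl1 was at 489 CPM in C3-TAg and 872 CPM in WT. Cxcl2 was at 196 CPM in C3-TAg and 523 CPM in WT. Of 17 measured TGF-beta and activin genes 9 were lower and 5 higher, with Inhba at 43.7 CPM in C3-TAg and 3.04 CPM in WT. The inhibitory Smad7 was at 73.4 CPM in C3-TAg and 235 CPM in WT. Of the EGF family list 3 of 9 measured genes were higher and none lower, and of the milk and lipid list 7 of 14 were lower and 1 higher. Of 11 measured antimicrobial and secretory genes 6 were lower and 1 higher, with Lcn2 at 1386 CPM in C3-TAg and 5016 CPM in WT. Of 15 measured immune ligand and MHC class I genes 8 were higher and none lower, with B2m at 1199 CPM in C3-TAg and 489 CPM in WT. H2-Q7 was at 149 CPM in C3-TAg and 30.2 CPM in WT. With TMM scaling the median of that list was 0.38, under 1.5-fold. Sox9 was at 499 CPM in C3-TAg and 623 CPM in WT (-0.32). Vtcn1 was at 18.6 CPM in C3-TAg and 12.6 CPM in WT (0.56). Sox9 and Vtcn1 were thus within 1.5-fold. Sox11 was at 41.1 CPM in C3-TAg and 1.30 CPM in WT. Defb6, Serpinb2 and Cst6 were among the lowest genes in C3-TAg but rested on few WT cells, with a UMI in 0.904%, 0.904% and 2.35% of them. Slfn9 was at 75.7 CPM in C3-TAg and 0.868 CPM in WT. Nnat was at 3.21 CPM in C3-TAg and 53.2 CPM in WT. Ccr7, a chemokine receptor, was at 0.291 CPM in C3-TAg and 72.5 CPM in WT, with a UMI in 2.71% of WT cells. Snai1, a repressor of E-cadherin, was at 3.06 CPM in C3-TAg and 48.2 CPM in WT, with a UMI in 2.005% and 21.3% of cells.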

How the data were processed

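Single-cell 3′ libraries of Sox9-GFP;C3-TAg and Sox9-GFP (WT) mammary luminal cells were deposited as matrices of raw UMI counts for 31053 genes. The submitters' processing notes name Cell Ranger 3.1.0 and mm10, and the file headers give the same software version. No reporter or transgene row was found. There was 1 library per group, with 91932121 UMIs in C3-TAg and 91133082 in WT. Cell filters, the membership rule and its thresholds are given with the results. The members and gene lists were chosen with earlier results of these data known.

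Counts were summed over the cells of a group and scaled to CPM, the same total in each group. Levels and ratios carry exact Poisson 95% intervals and shares exact Clopper-Pearson intervals, all for counting error only. Cells are not replicates, so no p-value was computed. A gene counted as higher or lower at 1.5-fold or more, among genes with a mean of at least 10 CPM in the groups compared. Genes of the rule were left out. A group with no UMI was set to a floor of 3 counts for a fold. Genes were named by rule: the 12 highest and 12 lowest ratios against milk-expressing cells, and the 8 highest and 8 lowest in the other comparisons, at a mean of at least 20 CPM. The 5 labelled markers, Sox9, Vtcn1, up to 4 list members at either end and up to 6 leading genes per cluster were added. Other list members named were chosen after their values were seen. Of the leading genes under this rule, 1 is not reported here.

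Members were clustered with the Leiden method (scanpy 1.11.5, leidenalg 0.10.2, resolution 0.5) on 30 components of 2000 variable genes, and doublets were called within each library with Scrublet and kept in. For shares, cells were thinned to 2000 UMIs. Other computations used Python 3.11.15, numpy 2.4.6, scipy 1.17.1 and pandas 2.3.3, and the ratio script was tested on simulated data. The alternatives covered scaling, doublets, thresholds, depth, level filter, fold and cluster resolution.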

Additional observations from a re-analysis of the deposited data

Results flagged for a closer look

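Btg2, an antiproliferative gene and p53 target, differed in opposite directions between milk-low and milk-expressing cells of the libraries. In C3-TAg it was at 328 CPM in milk-low and 149 CPM in milk-expressing cells, a log2 ratio of 1.14 (1.07 to 1.20). In WT it was at 227 CPM in milk-low and 409 CPM in milk-expressing cells, a log2 ratio of -0.85 (-0.94 to -0.76). The ratios differed by 1.99 on the log2 scale, C3-TAg minus WT. With 1 library per genotype this difference was not tested.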

How the results depend on the processing

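No list median or named gene past 1.5-fold changed direction in the alternatives run, but counts depended on the settings. TMM scaling gave 606 higher and 733 lower genes against milk-expressing cells, 188 higher against high mitotic cells, and 1201 higher and 1194 lower against WT. Thinning to 2000 UMIs gave 246 higher and 823 lower genes against high mitotic cells. A level filter of 5 CPM gave 201 higher genes in that comparison. A filter of 50 CPM gave 442 and 140 genes against milk-expressing cells, 31 and 150 against high mitotic cells and 637 and 314 against WT, higher before lower. A 2-fold threshold gave 434 and 129, 30 and 180, and 826 and 429 in the same order. Without cluster 1, 211 genes were lower than in milk-expressing cells. Fewer genes pass a stricter filter or fold by construction, and for the other settings the cause was not tested. Of the list medians, 637 stayed on their side of 1.5-fold, 21 moved past it and 30 moved inside it. Of the single-gene values, 251, 8 and 7 did so. With TMM scaling the medians against milk-expressing cells of the junction (0.37), integrin (0.37), CDK inhibitor (0.32), S phase (0.45), p53 (0.51) and fetal (0.52) lists were under 1.5-fold. No paired analysis was possible because each genotype had 1 library, and leaving out a replicate was not possible for the same reason. Genotype, library and pooled animals cannot be told apart, and a fold against a group with 0 UMIs rests on the floor of 3 counts.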
